A study of Homo sapiens with 4 samples.

Results

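The genes described here are 9 members of the bone morphogenetic protein (BMP) pathway, namely BAMBI, GREM1, BMP4, ID1, ID2, ID3, ID4, SMAD6 and SMAD7. They were taken by symbol from the 33538 genes listed in each count matrix, and all 9 were found. The counts come from single-cell RNA sequencing of HCEC 1CT cells, a line of human colonic epithelial cells immortalised with TERT and CDK4. Cells were transduced with a viral shRNA that targets APC (shAPC) or with a scrambled one (shScr), and each was harvested at day 3 and at day 7. All 4 groups were kept in puromycin, in a medium with EGF, hydrocortisone, insulin, selenium, transferrin and serum. There was 1 library for each group. Differences therefore could not be set against the spread between replicates, and p-values are not given. The model has 1 cell line and lowers APC by a stable shRNA without deleting the gene.

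BMPs are secreted ligands that bind receptor kinases at the cell surface. The receptors phosphorylate SMAD proteins, which enter the nucleus and switch on target genes, among them the ID genes and the inhibitory SMADs. GREM1 binds BMP ligands outside the cell, and BAMBI is a membrane pseudoreceptor without a kinase domain that dampens BMP and TGF-beta signalling and is also known as a target of β-catenin. In the colon, BMP signalling favours differentiation of cells that leave the crypt, whereas antagonists made by cells around the crypt base keep it low there. APC is part of the complex that degrades β-catenin, and the question of the comparison is what lowering APC does to these cells early on.

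UMIs (unique molecular identifiers, which count distinct mRNA molecules) were added up per library over the cells kept. Levels are in CPM, UMIs of a gene scaled to a common total for all libraries. The 4 libraries held 788 to 2600 kept cells and 28451455 to 39797418 UMIs, with a median of 1330 UMIs per cell in shScr day 7 against 21029.5 to 49685.5 in the others. Intervals are 95% intervals that cover counting error only. APC itself was lower in shAPC, with a log2 ratio of -1.54 at day 3 and -1.53 at day 7. The label of the line was checked against marker genes. The 12 epithelial markers summed to 25.8 to 50.4 CPM and none reached 20 CPM. EPCAM had 0 to 2 UMIs, CDH1 0 or 1, and CDX2 and KRT20 none in any library, whereas KRT8 had 9.57 to 19.4 CPM, CLDN7 6.26 to 16.9, KRT18 3.02 to 7.13 and KRT19 2.34 to 5.72. The 12 fibroblast markers, with VIM, FN1 and COL1A1 in the lead, summed to 9151 to 11713 CPM. EPCAM, CDH1, CDX2 and KRT20 were thus at or near 0 in cells labelled colonic epithelial, and the keratins and CLDN7 were low. Between 1 and 19 kept barcodes were shared by any pair of libraries, and no log2 ratio of a member moved by more than 0.09 when all shared barcodes were left out, in an alternative chosen after seeing the data.

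The sequences just upstream of BAMBI, ID1 and ID3 are shown first. BAMBI stood apart from the other members between the libraries, and ID1 and ID3 were the pair of members most alike across cells. Each line gives the 250 bases before the RefSeq transcription start (GRCh38.p14), 5′ to 3′ on the strand of the gene, for BAMBI at chr10:28677271-28677520 on the plus strand, ID1 at chr20:31605039-31605288 on the plus strand and ID3 at chr1:23559502-23559751 on the minus strand. Capitals mark matches on either strand to GGCGCC, the core of a GC-rich element that BMP SMADs can bind, and to GTCT or its reverse complement AGAC, the short SMAD box.
BAMBI: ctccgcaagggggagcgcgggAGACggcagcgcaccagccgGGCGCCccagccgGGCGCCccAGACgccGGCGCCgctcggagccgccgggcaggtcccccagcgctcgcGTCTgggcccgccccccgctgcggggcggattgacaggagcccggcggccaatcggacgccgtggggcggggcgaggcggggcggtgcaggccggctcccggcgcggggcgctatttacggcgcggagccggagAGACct
ID1: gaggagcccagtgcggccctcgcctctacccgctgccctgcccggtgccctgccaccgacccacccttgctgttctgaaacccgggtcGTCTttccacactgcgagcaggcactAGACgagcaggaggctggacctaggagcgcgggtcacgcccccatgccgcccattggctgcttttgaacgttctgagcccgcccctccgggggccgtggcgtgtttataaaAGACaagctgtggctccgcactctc
ID3: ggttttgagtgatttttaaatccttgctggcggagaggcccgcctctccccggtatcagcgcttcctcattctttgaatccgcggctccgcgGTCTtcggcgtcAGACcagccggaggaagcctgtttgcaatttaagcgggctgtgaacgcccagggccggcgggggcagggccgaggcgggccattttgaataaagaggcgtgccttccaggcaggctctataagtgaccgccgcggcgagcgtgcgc
The BAMBI stretch held GGCGCC 3 times, with first bases 209, 196 and 181 before the start, and the SMAD box 4 times. The ID1 and ID3 stretches held the SMAD box 3 and 2 times and no GGCGCC. Among 27305 RefSeq promoter stretches of the same length, 16.11% held GGCGCC and 77.58% held the SMAD box, so the box is common and GGCGCC less so. G and C made up 81.2% of the BAMBI stretch, 66% of that of ID1 and 62% of that of ID3. The shares over all stretches were not matched for this content. GREM1 held GGCGCC 2 times before the first of its starts and BMP4 held it 1 time. The motif CTTTGA, or TCAAAG on the other strand, is the core letters of sites for TCF and LEF factors. It was found at ID3, 179 bases before the start, and at the third start of SMAD7, in 11.36% of all stretches, and not in the other member stretches. TGACG, searched also as the reverse complement, holds letters that CREB and ATF factors can bind. Among the members it was found at ID3 only, on the other strand, 150 bases before the start, and in 21.66% of all stretches. At ID3 its match shares 1 base with the second SMAD box, and no other matches overlap in these 3 sequences. RefSeq stretches matched all 9 members, and a match is a description of letters and not of binding.

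BMP4, the ligand among the members, is encoded on chromosome 14 (ENSG00000125378, 53949736 to 53958761, minus strand, hg38, GENCODE 44). It had 7.66 CPM in shScr and 7.13 in shAPC at day 3, and 8.29 and 6.26 at day 7, from 178 to 305 UMIs. The intervals of shScr and shAPC overlapped at day 3 (6.83 to 8.57 against 6.27 to 8.07), and at day 7 they did not (7.31 to 9.37 against 5.37 to 7.25). The log2 ratio of shAPC to shScr was -0.11 (-0.35 to 0.14) for day 3 and -0.41 (-0.69 to -0.13) for day 7. A lncRNA on the opposite strand overlaps BMP4, and the sources used here do not say whether strand was used in counting.

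GREM1, the secreted antagonist, had the highest count of the members in all 4 libraries (ENSG00000166923, chromosome 15, 32718004 to 32745106, plus strand). Its level was 499 CPM in shScr and 487 in shAPC at day 3, and 563 and 519 at day 7. The levels thus lay within a narrow range, and the log2 ratios of shAPC to shScr were -0.03 (-0.064 to -0.0045) at day 3 and -0.12 (-0.15 to -0.09) at day 7. Within shScr, day 7 exceeded day 3 by 0.17, and within shAPC by 0.09. The day 7 ratio of shAPC to shScr turned to 0.01 when each cell was given the same weight. An antisense lncRNA, GREM1-AS1, overlaps this gene.

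The ID proteins bind basic helix-loop-helix transcription factors and keep them from DNA, and ID1, ID2 and ID3 are classical immediate targets of BMP signalling. ID3 (ENSG00000117318, chromosome 1, 23557926 to 23559501, minus strand) had 277 CPM in shScr and 199 in shAPC at day 3, and 438 and 259 at day 7. It was lower in shAPC than in shScr at both days, and higher at day 7 than at day 3 with either shRNA. The log2 ratio of shAPC to shScr was -0.48 (-0.52 to -0.44) for day 3 and -0.76 (-0.80 to -0.71) for day 7. Among genes that reached 20 CPM in either library compared, it ranked at the 2.36 percentile of 5175 genes at day 3 and the 3.96 percentile of 4573 genes at day 7.

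ID2 (ENSG00000115738, chromosome 2, 8678845 to 8684461, plus strand) had 26.7 CPM in shScr and 22.2 in shAPC at day 3, and 40.0 and 25.9 at day 7. The order of its libraries was that of ID3 with the day 3 shScr and day 7 shAPC libraries side by side, whose intervals overlapped (25.1 to 28.3 against 24.1 to 27.8). Its log2 ratios of shAPC to shScr were -0.27 (-0.40 to -0.13) at day 3 and -0.63 (-0.76 to -0.50) at day 7. An antisense lncRNA, ID2-AS1, overlaps ID2 as one does at BMP4.

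ID1 (ENSG00000125968, chromosome 20, 31605283 to 31606515, plus strand) had 159 CPM in shScr and 153 in shAPC at day 3, and 189 and 145 at day 7. The day 3 libraries overlapped in their intervals (155 to 163 and 149 to 158), and shScr day 7 was the highest. In shAPC relative to shScr this gave -0.05 (-0.10 to 0.00) on the log2 scale for day 3, and -0.38 (-0.44 to -0.33) for day 7. Within shAPC, day 7 against day 3 was -0.08, which turned to 0.22 with TMM, a scaling by the trimmed mean of gene ratios.

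ID4 (ENSG00000172201, chromosome 6, 19837370 to 19842197, plus strand) had no UMI in the shScr library of day 3 and 1 in that of shAPC, and 3 and 1 at day 7. Taking 3 counts as the limit that a count of 0 allows, ID4 could be at up to 0.0754 CPM in shScr day 3, and no ratio is given because every library lay at or under 3 counts. Its expression was not detectable at this depth.

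**Figure D1:**
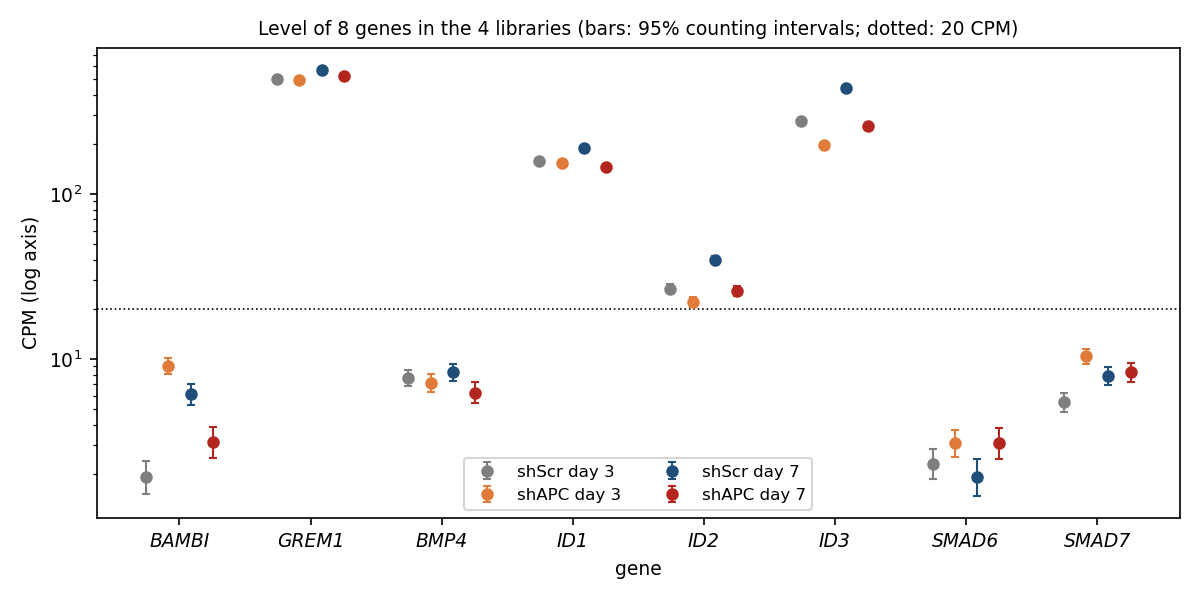
CPM (log axis) of 8 genes in the 4 libraries, 1 point per library with its 95% counting interval; ID4, at 0 to 3 UMIs, is left out. GREM1, ID1, ID2 and ID3 lie above the dotted line at 20 CPM in every library, the other 4 lie below it, and the shScr day 7 point is the highest of the 4 for ID1, ID2 and ID3.

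The inhibitory SMADs block the receptors and the SMAD transducers from inside the cell and are themselves induced by the pathway. SMAD7 (ENSG00000101665, chromosome 18, 48919853 to 48950965, minus strand) had 5.48 CPM in shScr and 10.4 in shAPC at day 3, and 7.88 and 8.29 at day 7. It was lowest in shScr day 3, and the day 7 libraries overlapped. Its log2 ratio of shAPC to shScr was 0.92 (0.68 to 1.17) for day 3 and 0.07 (-0.19 to 0.34) for day 7. SMAD6 (ENSG00000137834, chromosome 15, 66702236 to 66782849, plus strand) had 2.31, 3.09, 1.92 and 3.09 CPM in the same order, from 60 to 108 UMIs. Both shAPC libraries were above both shScr libraries, with log2 ratios of 0.42 (0.004 to 0.84) and then 0.69 (0.20 to 1.19). An lncRNA on the same strand overlaps SMAD6, so that the 2 cannot be told apart where they share sequence.

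BAMBI (ENSG00000095739, chromosome 10, 28677510 to 28682932, plus strand) had 1.93 CPM (77 UMIs) in shScr and 9.07 CPM (317) in shAPC at day 3, and 6.12 CPM (191) and 3.13 CPM (89) at day 7. Its order between shAPC and shScr was opposite at the 2 days, and no intervals of the 4 libraries overlapped. These intervals treat UMIs as independent and leave out spread between cells, and in shAPC day 3 15 cells held 63.4% of the UMIs. The log2 ratio of shAPC to shScr was 2.23 (1.87 to 2.61) for day 3 and -0.97 (-1.35 to -0.60) for day 7. Between the days the level was higher by 1.66 within shScr and lower, at -1.54, within shAPC. These day comparisons share libraries with the shRNA comparisons, so the 4 ratios are not independent.

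**Figure D2:**
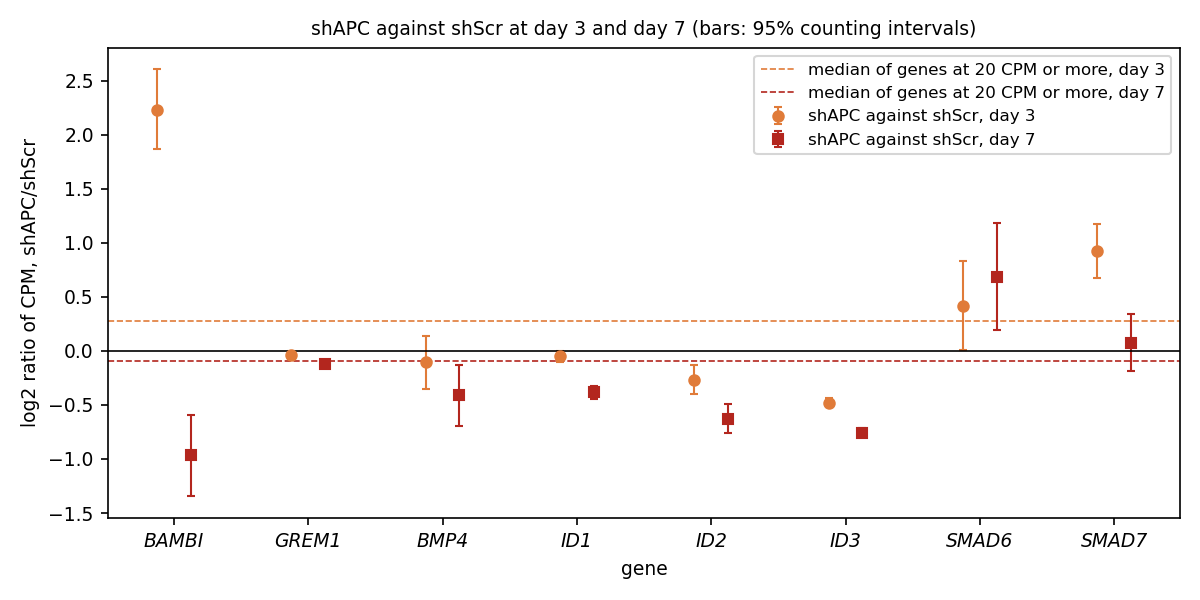
Log2 ratio of CPM, shAPC over shScr, for 8 genes at day 3 (circles) and day 7 (squares) with 95% counting intervals; dashed lines give the median ratio of all genes of at least 20 CPM, 0.28 at day 3 and -0.10 at day 7. BAMBI sits at 2.23 and -0.97. The points of ID1, ID2 and ID3 sit below 0 at both days, and those of SMAD6 and SMAD7 sit above 0. The intervals of ID1 at day 3 and of SMAD7 at day 7 include 0.

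For a count over members, a gene was called where log2 of CPM plus 1 differed by at least 2-fold and either library had 20 CPM of the gene or more. GREM1, ID1, ID2 and ID3 met the minimum, 4 of the 9 members, and the filter left out BAMBI, BMP4, ID4, SMAD6 and SMAD7. In shAPC against shScr, 0 of the 4 were called at day 3, where 4.29% of 5175 genes were, and 0 of 4 at day 7, where 2.56% of 4573 genes were. In day 7 against day 3, 0 of 4 were called within shScr, beside 1.12% of all genes tested, and 0 of 4 within shAPC, beside 5.83%. All 4 lay below 0 in both shRNA comparisons, with a median of -0.15 at day 3 and -0.50 at day 7, whereas the median of all genes was 0.28 and -0.10. Relative to those medians the log2 differences of ID3 were -0.75 and -0.66, of ID2 -0.53 and -0.51, of ID1 -0.33 and -0.29, and of GREM1 -0.31 and -0.02, at day 3 and day 7. At day 7 most genes tested lay below 0, as VIM, at 0.003, stood at the 62.6 percentile. At day 3 ENG, at 0.03, stood at the 22.8 percentile. By this rank GREM1 was at 18.2 and 47.2, ID1 at 17.2 and 18.6, and ID2 at 6.55 and 6.98. The counting interval of ID1 at day 3 included 0. With a minimum of 5 CPM, BAMBI was called at day 3 and in both day comparisons. The share of all genes called was then 4.14% of 9680 at day 3. Between the days it was 0.99% of 9126 within shScr and 5.12% of 9711 within shAPC. TMM scaling moved all day 3 ratios down, to -0.86 for ID3, -0.41 for GREM1 and 1.85 for BAMBI, and left SMAD7 at 0.54 and SMAD6 at 0.04.

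A lower sum can come from fewer cells with the transcript or from less of it per cell. At a low fixed depth the share of cells with a UMI falls in either case, so it cannot tell them apart. To compare shares of cells across depths, each cell was thinned to 2000 UMIs, and shallower cells were left out, 217 in shScr and 115 in shAPC at day 3, and 1402 and 391 at day 7. ID3 was then seen in 38.6% of the 899 shScr cells and 28.1% of the 673 shAPC cells at day 3, and 53.4% of the 1198 and 36.2% of the 1087 cells at day 7. Without thinning, ID3 had a UMI in 860 of 1116, 583 of 788, 1679 of 2600 and 1093 of 1478 cells. At day 3 this unthinned share was 77.1% with shScr and 74.0% with shAPC, and the intervals overlapped. At day 7 it was higher with shAPC, at 74.0% (71.6 to 76.2) against 64.6% (62.7 to 66.4) with shScr. Median depth at day 7 was 21029.5 UMIs per cell with shAPC and 1330 with shScr. The thinned shares of ID3 were lower with shAPC at both days, with exact intervals apart, so the day 7 order was opposite with and without thinning. ID2 was seen in 3.67%, 2.53%, 9.10% and 5.89% of the thinned cells, with intervals that overlapped at day 3 and were apart at day 7. ID1 was seen in 24.4%, 21.1%, 31.1% and 23.0%, which likewise overlapped at day 3 only. GREM1 was seen in 53.3%, 52.0%, 56.9% and 52.6%, and its intervals overlapped at both days. After thinning, BAMBI, BMP4, SMAD6 and SMAD7 were each seen in at most 2.08% of cells, so no order is read from their shares. ALB and INS, liver and pancreas genes that these cells should lack, were seen in no thinned cell of any library, and HBB in 1 cell of shAPC day 3. Without thinning, HBB, a blood gene, was found in 3 of 1116 shScr cells and 17 of 788 shAPC cells of day 3. For day 7 the cells were 4 of 2600 and 2 of 1478. HBA1, another blood gene, had 6 (shScr) and 28 (shAPC) pooled UMIs at day 3, then 3 and 13. Whether UMIs of this kind bear on the low counts of BAMBI was not tested.

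**Figure D3:**
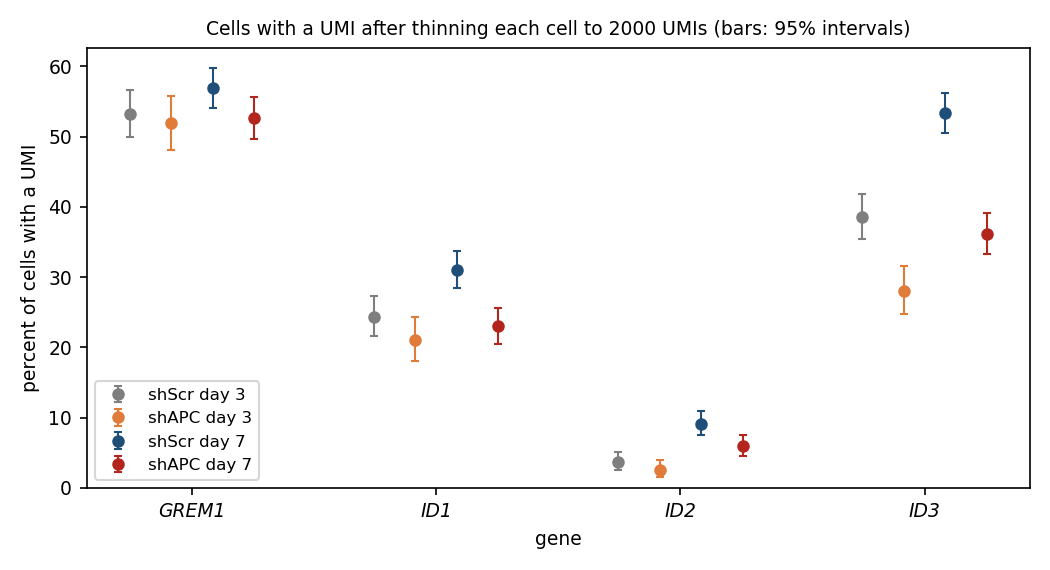
Percent of cells with at least 1 UMI of GREM1, ID1, ID2 and ID3 after thinning each cell to 2000 UMIs, 1 point per library with an exact 95% binomial interval. For ID3 the shAPC points, 28.1% and 36.2%, lie below the shScr points of the same day, 38.6% and 53.4%.

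The level of ID3 was compared between shallow and deep cells within each library. In shScr day 7, ID3 had 704 CPM in the 1681 cells under 10000 UMIs and 416 CPM in the 919 deeper cells. In shScr day 3 the levels were 373 and 275 CPM, in shAPC day 7 458 and 251, and in shAPC day 3 200 and 199. ID1 was likewise higher in the shallow cells of 3 libraries and not in shAPC day 3, at 138 and 154 CPM. ID2 was higher in the shallow cells at day 7, at 57.9 and 38.6 CPM in shScr and 36.8 and 25.5 in shAPC, and not at day 3, at 20.7 and 26.8 in shScr and 13.8 and 22.3 in shAPC. In cells of at least 10000 UMIs alone, the log2 ratio of shAPC to shScr for ID3 was -0.47 at day 3 and -0.73 at day 7, for ID2 -0.26 and -0.60, and for ID1 -0.04 and -0.36. The differences in the deeper cells were thus about as large as in all cells. Shallow cells held a small part of the pooled UMIs, 1666 of 13675 for ID3 in shScr day 7 and 510 of 7382 in shAPC day 7. Leaving them out could therefore move the ratios little, and the comparison does not describe the shallow cells themselves.

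Cells were assigned to cell cycle phases from S and G2M gene lists after thinning to 2000 UMIs. ID3 was lower in shAPC than in shScr in each phase at both days. At day 3 it had 185 against 269 CPM in G1, 257 against 276 in S and 239 against 315 in G2M. At day 7 it had 252 against 440, 291 against 409 and 278 against 398. The S phase values at day 3, from 34 and 35 cells, overlapped in their intervals. ID1 was higher in G2M than in G1 in 4 of 4 libraries, with 188 and 154 CPM in shScr and 185 and 140 in shAPC at day 3, and 209 and 175 in shScr and 168 and 139 in shAPC at day 7. GREM1 was lower in G2M than in G1 in 4 of 4 libraries, at 377 and 531, 416 and 507, 339 and 651, and 323 and 561 CPM in that order of libraries. The part of free RNA in the phase calls was not tested.

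**Figure D4:**
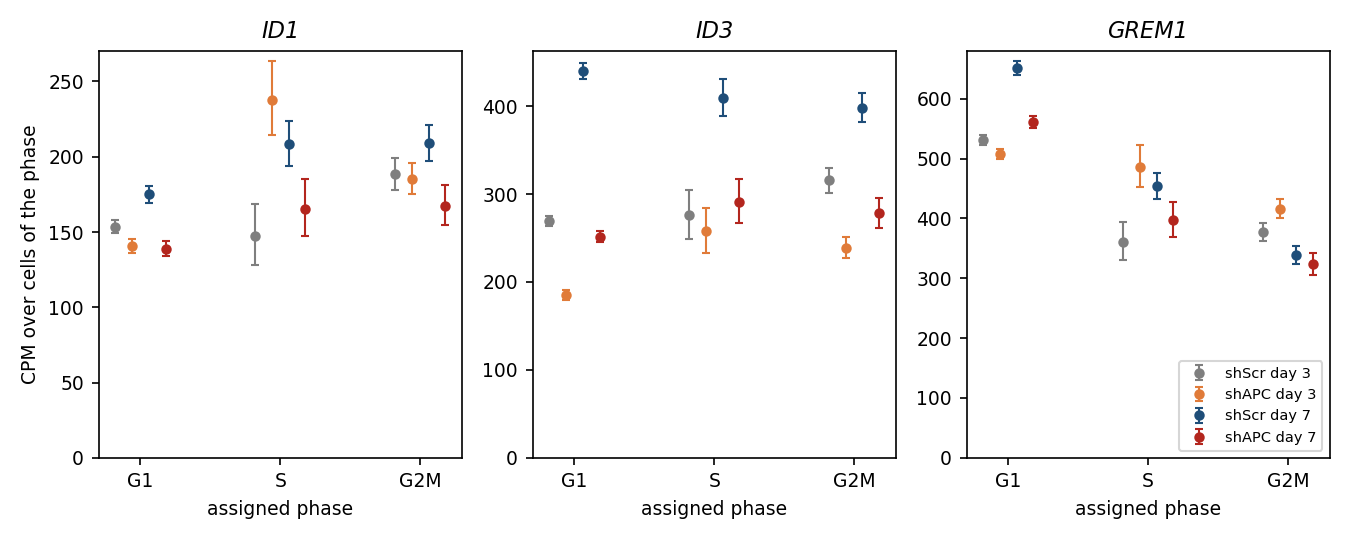
CPM of ID1, ID3 and GREM1 over the cells assigned to G1, S and G2M in each library, with 95% counting intervals. GREM1 is lower in G2M than in G1 in every library, ID1 is higher, and ID3 is lower in shAPC than in shScr of the same day in each phase.

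BAMBI UMIs were concentrated in few cells in 2 of the libraries. In shAPC day 3, 15 cells held 5 or more UMIs each, and together 201 of the 317, or 63.4%, with 57 in the highest cell. In shScr day 7, 8 such cells held 64 of 191 UMIs, or 33.5%. In shScr day 3 and shAPC day 7 no cell had over 4 BAMBI UMIs. The libraries with such cells were the 2 with the highest BAMBI levels.

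These cells were compared with cells that carried ATF3, a transcription factor induced by stress, which was chosen with earlier results of these data known. Cells of at least 10000 UMIs were split by whether an ATF3 UMI was present after thinning to 10000. In shAPC day 3, 55 of 576 cells had one, and they held 210 of the BAMBI UMIs, or 66.2%. BAMBI was at 48.6 CPM (42.2 to 55.6) in them and at 3.56 (2.92 to 4.30) in the rest. In shScr day 7, the 21 cells with ATF3 had 65.0 CPM of BAMBI against 4.14 in the other 898. In shAPC day 7, the 17 cells with ATF3 had 3.87 CPM against 3.09, and in shScr day 3 the 12 cells had 1.63 against 1.93, with overlapping intervals in both. In shAPC day 3 the cells with ATF3 were also deeper, with a median of 75603 against 56478 UMIs.

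Among cells without ATF3, BAMBI had 1.93 CPM in shScr and 3.56 in shAPC at day 3, and 4.14 and 3.09 at day 7. The log2 ratio of shAPC to shScr was then 0.88 at day 3 and -0.42 at day 7, as against 2.23 and -0.97 in all kept cells, in an alternative chosen after seeing the data. ID1 was lower in cells with ATF3 in shAPC day 3, at 51.8 against 168 CPM, and in shScr day 7, at 67.4 against 186. It was at 106 against 143 in shAPC day 7 and at 177 against 157 in shScr day 3, with overlapping intervals in both. ID3 was lower in the cells with ATF3 in shAPC day 3, at 118 against 210, and higher in shScr day 7, at 545 against 412. In shScr day 3 ID3 was also higher, at 394 against 273, and in shAPC day 7 it was at 219 against 252, with overlapping intervals, in cells with ATF3. Without these cells, the day 3 ratio of ID1 was 0.10 and that of ID3 -0.38, and at day 7 they were -0.38 and -0.71. SMAD7 had 10.2 CPM in shAPC day 3 and 5.50 in shScr day 3 among cells without ATF3, close to its levels in all cells.

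**Figure D5:**
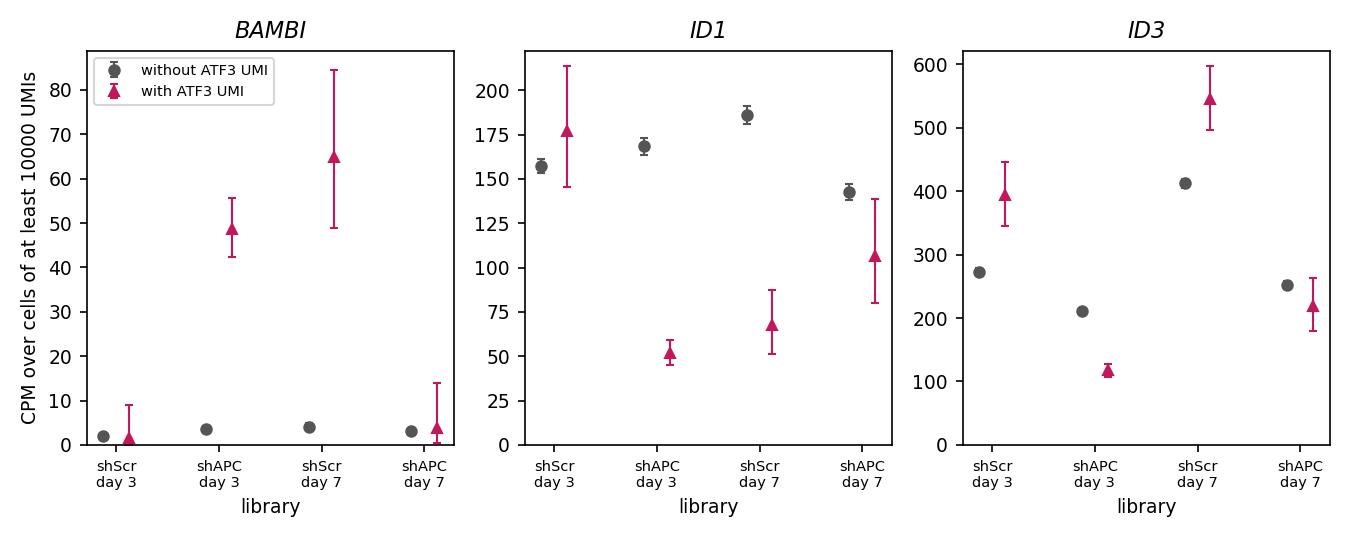
CPM of BAMBI, ID1 and ID3 in cells of at least 10000 UMIs with (triangles) and without (circles) an ATF3 UMI after thinning to 10000, per library, with 95% counting intervals. BAMBI is high in the cells with ATF3 of shAPC day 3 (48.6 CPM) and shScr day 7 (65.0 CPM) and between 1.63 and 4.14 CPM in the other sets of cells.

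AXIN2, a negative regulator of Wnt signalling and a standard β-catenin target, was used to split the cells in the same way. In shAPC day 7, 43 of 927 cells had an AXIN2 UMI. They had 789 CPM of GREM1 (736 to 844) against 517 (508 to 526) in the others, and 112 CPM of ID1 (92.5 to 134) against 143 (139 to 148). BAMBI had 7.51 CPM (3.24 to 14.8) from 8 UMIs against 2.93, and ID3 256 against 251. The other libraries held 1 to 6 such cells, too few to compare.

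Across single cells, the ID genes varied together. Over 576 to 927 cells per library thinned to 10000 UMIs, the Pearson correlation of ID1 with ID3 was 0.28 to 0.37, that of ID2 with ID3 0.20 to 0.27, and that of ID1 with ID2 0.12 to 0.20. The cells of a library share its preparation, and the counts of ID2 were sparse. By mean correlation over the 4 libraries, among 3822 genes, the genes most like ID3 were ID1, ID2, HSPB1, DUSP1 and POMP, at 0.33 to 0.17. Those most like ID1 were ID3, DKK1, SLC20A1, ID2 and ACTB, at 0.33 to 0.15. ID2 had ID3, ID1, SPON2, HSPB6 and ATOH8, at 0.23 to 0.11. GREM1 had COL6A1, FN1, COL1A2, CYP1B1 and COL1A1, at 0.37 to 0.33, and its correlation with the ID genes was -0.09 to 0.15 over the libraries. The median over all genes was 0.02 or less for each of the 4.

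The rest of the pathway was described from fixed lists of genes, with the same call. The list of other BMP ligands held 12 genes, of which 2 were tested at day 3 and 1 at day 7, and none was called. The gene tested at both days was BMP1, which despite its name is a protease that processes BMP antagonists and collagens, at 0.27 and 0.34. GDF6, a ligand, was at -0.22 at day 3 and, under the minimum, at -0.17 at day 7, so no ligand proper was tested at day 7. Of 13 extracellular antagonists 4 were tested and none called at either day. CRIM1, which binds BMPs, was at -0.19 and -0.25, and NBL1, a secreted antagonist, at 0.09 and 0.23. Of 10 receptors and coreceptors 3 were tested and none called, among them ENG at 0.03 and -0.03 and RGMB at 0.36 and -0.12. Of 6 SMAD transducers 4 were tested and none called. SMAD5, a transducer of BMP signals, was at 0.37 and 0.42, and SMAD3, of TGF-beta signals, at -0.08 and -0.04. Of 9 intracellular inhibitors 4 were tested at day 3 and 5 at day 7 with none called, including STRAP at -0.15 and -0.30 and SMURF2 at 0.16 and -0.16.

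In shAPC against shScr, the other pathway lists held 4 genes with a 2-fold call, HES1, RUNX2, BHLHE40 and INHBA, each at day 3. Of 10 other BMP targets 3 were tested at day 3 and 2 were called, both higher in shAPC. HES1, a repressor best known as a Notch target, had 10.1 CPM in the day 3 shScr library and 41.8 in its shAPC counterpart, or 2.06 (1.90 to 2.22) as a log2 ratio, and 5.09 and 6.57 CPM at day 7. RUNX2, a bone transcription factor, had 8.90 and 20.2 CPM at day 3, a ratio of 1.18, and was at 0.32 at day 7. Relative to the median of all genes, HES1 kept the call and RUNX2 lost it, beside 2.13% of all genes called higher in this way. Of 10 basic helix-loop-helix partners of ID proteins 3 were tested at day 3, and HES1, which stands in both lists, and BHLHE40, a repressor tied to the circadian clock and stress, were called. BHLHE40 was at 1.07, and at 0.73 relative to the median, where it lost the call. Of 9 TGF-beta ligands and receptors 3 were tested, and INHBA, a subunit of activin, was called with 90.0 and 234 CPM at day 3, a ratio of 1.38, and 0.74 at day 7. It kept the day 3 call relative to the median, at 1.09. Of 12 TGF-beta targets 10 were tested at day 3 and 9 at day 7 with none called. TGFBI, a matrix protein named after its values were seen, was at 0.54 and 0.97 and reached the call at day 7 only relative to the median, as did 1.01% of all genes. COL1A1, a chain of fibrillar collagen, was at 0.07 and 0.68. The share called higher over all genes was 3.86% at day 3 and 0.787% at day 7. Of the 12 fibroblast markers 11 were tested at day 7, with a median of 0.02. The collagen genes COL1A2 and COL3A1 were called higher in shAPC, at 1.18 and 1.33, none was called lower, and PDGFRA was at -0.70, THY1 at -0.40 and FN1 at -0.16. The part of these differences in the member values was not tested.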

How the data were processed

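Single cells of the HCEC 1CT line were sequenced from 4 libraries, 1 per group, with the 10x Genomics 3′ method. The authors aligned the reads to GRCh38 and deposited raw UMI counts per gene and cell barcode. Per the file headers, the shScr libraries were counted with Cell Ranger 3.0.2 and the shAPC libraries with 3.0.0, and the submitters' processing notes name Cell Ranger 3.0.2 and STAR. The version and the shRNA cannot be told apart. The labels call the virus retroviral and the kit v2, whereas the methods call them lentiviral and V3.

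Barcodes with at least 200 genes, 500 UMIs and under 5% of UMIs from 13 mitochondrial genes were kept, 1116 in shScr and 788 in shAPC at day 3, and 2600 and 1478 at day 7. The mitochondrial limit took 24.1% to 28.8% of the barcodes of 3 libraries and 51.3% of shAPC day 7. Doublets were not called or removed, and leaving out the 5% of cells with the most UMIs was an alternative. Counts were summed per library and scaled to CPM. CPM have exact Poisson, ratios exact conditional binomial (Clopper-Pearson) and shares exact binomial (Clopper-Pearson) 95% intervals. Calls used log2 with a pseudocount of 1 CPM, and the step was tested on simulated data. Scaling alternatives used edgeR 4.0.16 and DESeq2 1.42.0, phases used scanpy 1.11.5 with the lists of Seurat 5.3.0, and the rest used Python 3.11.15 with numpy 2.4.6, scipy 1.17.1 and pandas 2.3.3.

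The members and all gene lists were chosen with earlier results of these data known. Named were all members, of each pathway list the called genes or otherwise the 2 with the highest mean CPM, and the 5 genes most correlated with each member of at least 20 CPM in every library. Positions are from GENCODE 44 (hg38) and upstream sequences from RefSeq (GRCh38.p14). Protein sequences were not used here. The values of 1 gene that this rule names are not reported here.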

Additional observations from a re-analysis of the deposited data

Results flagged for a closer look

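The log2 ratio of shAPC to shScr for BAMBI was 2.23 at day 3 and -0.97 at day 7, opposite directions in the same contrast at the 2 days. The difference between the days was -3.20 (-3.71 to -2.69, counting error only). With 1 library per group it was not tested against the spread of cultures. In shAPC day 3, 15 cells held 63.4% of the BAMBI UMIs. In cells of at least 10000 UMIs without an ATF3 UMI, the ratios were 0.88 and -0.42, opposite still but smaller.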

How the results depend on the processing

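Of 60 recomputed counts of called members, 53 were the same as the value given, which was 0 in each comparison. With a minimum of 5 CPM and with no minimum, the count was 1, BAMBI, in shAPC against shScr at day 3 and in day 7 against day 3 within shScr and within shAPC. In that order, 4.14%, 0.99% and 5.12% of all genes were called with the minimum of 5 CPM. With no minimum the shares were 3.11%, 0.70% and 3.55%. When CPM were averaged over cells, the count was 1, ID2, in day 7 against day 3 within shScr, beside 3.55% of all genes. Of 512 recomputed log2 ratios of single members 389 lay inside the counting interval of the value given, none of at least 2-fold changed sign, and 19 smaller ones did, among them BMP4 in shAPC between the days in 6 of 16 settings and ID1 in 5 of 16. The ratio of BAMBI lay between 0.88 and 2.26 at day 3 and between -1.38 and -0.42 at day 7, and that of ID3 between -0.86 and -0.38 and between -0.90 and -0.66. SMAD6 was at 1.39 and 1.61 when CPM were averaged over cells. For members under 20 CPM, depth limits what single cells can show. The cause of these shifts was not tested. No paired analysis was possible because the groups compared hold 1 library each and share fewer than 2 replicate numbers. A model of shRNA with day as a term over the 4 libraries was not run.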
